A study of Mus musculus with 2 samples.

Results

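The genes described here are the ligand insulin-like growth factor 1 (Igf1), the receptors Igf1r, Insr and Igf2r, and the binding proteins Igfbp2, Igfbp3, Igfbp4, Igfbp5, Igfbp6 and Igfbp7. They were taken by gene symbol from the deposited gene lists and are 10 of the 32285 genes counted. The study asked how dorsal skin of male C3H/HeN mice differs in an androgenetic alopecia (AGA) model, and by which cells. Mice were shaved at 7 weeks and injected subcutaneously with testosterone propionate (TP), 0.5 mg daily, or with vehicle (control), and skin was taken at 9 weeks. Skin from 15 mice was combined for each group, and each pool gave 1 droplet library that reads the 3' end of polyadenylated transcripts, so animals cannot be told apart and group, pool and library are the same thing. A group that also received a CXCL12 antibody is not analysed here.

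IGF1 acts at the cell surface through the receptor tyrosine kinase IGF1R, which signals through IRS adaptors to the PI3K to FoxO and the MAP kinase routes. In hair follicles it is known as a factor that mesenchymal cells of the dermal papilla release and to which the neighbouring keratinocytes respond, and it is known for prolonging hair growth. The insulin-like growth factor binding proteins hold IGFs in the extracellular space, where they can block them, store them or extend their life, until proteases such as PAPP-A cut them.

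The limit of 10% mitochondrial UMIs (counted molecules) was exceeded by 3465 of 45709 control and 5871 of 25931 TP barcodes, which were removed, and the part of this difference in the results was not tested. After filtering, the control library held 39076 cells with a median of 2070 UMIs and the TP library 18542 cells with a median of 4970. The libraries shared 303 barcodes. Clusters were named from marker genes, without use of the 10 genes or their pathway, and 14 cell classes were obtained. They left 45.1% of control and 25.9% of TP cells unnamed. Levels are UMIs of a gene per 1000000 UMIs of the class (CPM), with exact 95% intervals in parentheses, which hold counting error and nothing else. Pairs of values give control first and TP second, and ratios are TP over control. With 1 library per group no difference could be tested against the spread between animals, and levels of different genes are not compared because a 3' count is not per transcript length. A gene was counted as higher or lower in TP where log2(CPM + 10) differed by at least 1, that is 2-fold, and the sum of its UMIs over the libraries was at least 50.

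In whole libraries all 10 genes reached 50 UMIs, 2 of them were higher in TP and 0 were lower. Of all 17594 genes tested, 1.71% were higher and 0.79% lower by the same rule. Igfbp3 stood at 37.2 and 86.4 CPM, a ratio of 2.33 (95% interval 2.24 to 2.41). Igfbp6 stood at 5.33 and 37.6 CPM, a ratio of 7.06 (6.48 to 7.71). Both are secreted binding proteins, and both belonged to few cell types, as described below. Igfbp2 was at 2.22 and 8.48 CPM, a ratio of 3.83 (3.33 to 4.41) that the added 10 CPM kept within 2-fold. In the other direction the same held for Igf2r, with a ratio of 0.48 (0.462 to 0.498).

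The ligand was at nearly the same level in both whole libraries. Igf1 was at 22.8 CPM in control and 22.0 CPM in TP (ratio 0.966, 0.915 to 1.02). Its direction changed with the setting: the log2 difference was -0.03, and it was 0.15 with TMM scaling, an alternative scaling by trimmed means, and -0.57 with control cluster weights. Igf1r stood at 299.8 and 221.9 CPM, Insr at 61.4 and 47.5 CPM, and Igf2r at 65.6 and 31.5 CPM. The ratios of these receptors were 0.74, 0.774 and 0.48. When levels were averaged over cells as ln(counts per 10000 + 1), Igf1r and Insr turned to log2 differences of 0.10 and 0.30. The median log2 difference of the 10 genes was -0.16, beside -0.06 over all genes tested, and TMM scaling shifts all whole-library log2 ratios upward by 0.26 before the 10 CPM are added.

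The libraries held the cell types in different proportions, and whole-library values moved with them. Dermal fibroblast-like cells made up 0.312% of control and 2.86% of TP cells, and myeloid-like cells 0.264% and 1.75%. When the 30 clusters were given their control weights in both libraries, the ratio of Igfbp6 went from 7.06 to 1.30 that of Igfbp3 from 2.33 to 1.30, and that of Igfbp2 from 3.83 to 1.58. With TP weights Igfbp2 was at a ratio of 2.25. By the control weights Igf1 went from 0.966 to 0.528 and Igf2r from 0.48 to 0.748, and Igfbp5 turned from 0.814 to 1.16. In summed counts, more cells of a class and more RNA per cell cannot be told apart.

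**Figure D1:**
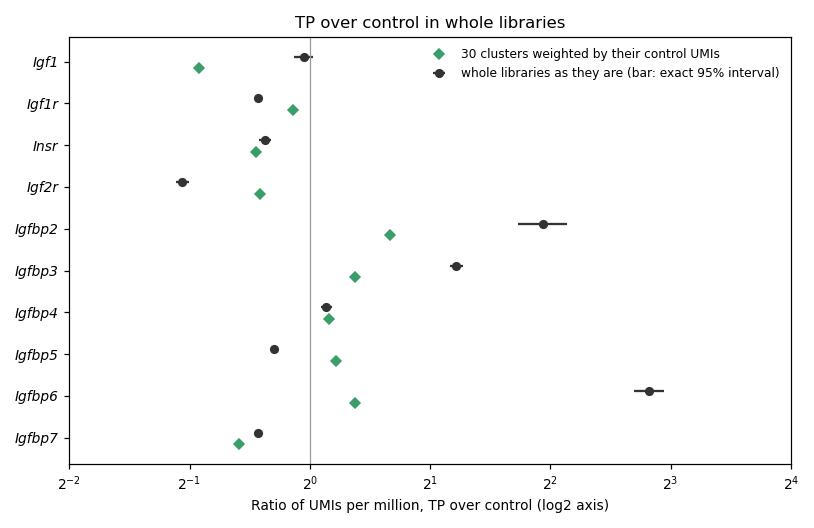
Ratio of CPM in TP over control in whole libraries (x axis, log2 scale) for each of the 10 genes (y axis). Dark points give the libraries as they are with exact 95% intervals for counting error, and green diamonds the ratio with 30 clusters weighted by their control UMIs; the point of Igfbp6 is at 7.06 and its diamond at 1.30, and the point of Igf1 at 0.966 with its diamond at 0.528.

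Igf1 (chromosome 10, 87858265 to 87937047 on GRCm38.p6) was a transcript of mesenchymal and myeloid cells. In control, dermal fibroblast-like cells held the highest level, 486 CPM (423 to 556), followed by myeloid-like cells at 222 (164 to 294) and dermal papilla cell (DPC)-like cells at 179.5 (172 to 188). The intervals of the myeloid-like and DPC-like levels overlapped, and dermal sheath cup-like cells came next at 129.6. In the 7 keratinocyte classes Igf1 was between 1.17 and 2.42 CPM in control. In TP the order was myeloid-like at 302, dermal fibroblast-like at 289 and DPC-like at 109.7, and the intervals of the myeloid-like and dermal fibroblast-like levels overlapped.

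Within classes the Igf1 level was lower in TP in the mesenchymal cells. The ratio was 0.594 (0.514 to 0.689) in dermal fibroblast-like, 0.611 (0.566 to 0.66) in DPC-like and 0.350 (0.232 to 0.518) in dermal sheath cup-like cells. Only the last, from 115 and 34 UMIs, passed the 2-fold rule. With 1 per 10000 added instead of 10 CPM, this difference was within 2-fold as well. In myeloid-like cells the ratio was 1.36 (1.01 to 1.86). DPC-like cells held 76.5% of all Igf1 UMIs in control and 33.7% in TP, while dermal fibroblast-like cells held 8.63% and 44.8% and myeloid-like cells 1.98% and 15.7%. The like whole-library totals were thus made by different cells.

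Depth differed between the libraries, so shares of cells with a UMI were also counted after every cell was thinned to 1000 UMIs. Igf1 was seen in 13.2% of DPC-like cells in control (421 of 3181, 12.1 to 14.5) and 10.5% in TP (158 of 1509, 8.97 to 12.1). The unthinned shares were 28.9% and 29.5%, at class medians of 2517 and 4533.5 UMIs. Inner root sheath-like cells, keratinocytes taken here as the background class, showed it in 0.192% and 0%, at medians of 2080 and 4838 UMIs. The TP value is 0 of 1047 cells, which by its interval allows up to 0.352%. Lymphocyte-like cells, also planned as a background class, showed Igf1 in 1.49% (0.407 to 3.76) of control cells. In TP they showed it in 0 of 40, which allows up to 8.81%. Except for Igf1r, later shares are set beside inner root sheath-like cells only. Lymphocyte-like control shares were 3.72% (1.8 to 6.73) for Igfbp5 and 7.06% (4.31 to 10.8) for Igfbp7. Dermal fibroblast-like cells showed Igf1 in 28.1% (20.3 to 37) and 21% (17.6 to 24.7). In dermal sheath cup-like cells the shares were 8.84% (26 of 294, 5.86 to 12.7) and 5.56% (7 of 126, 2.26 to 11.1), with overlapping intervals.

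**Figure D2:**
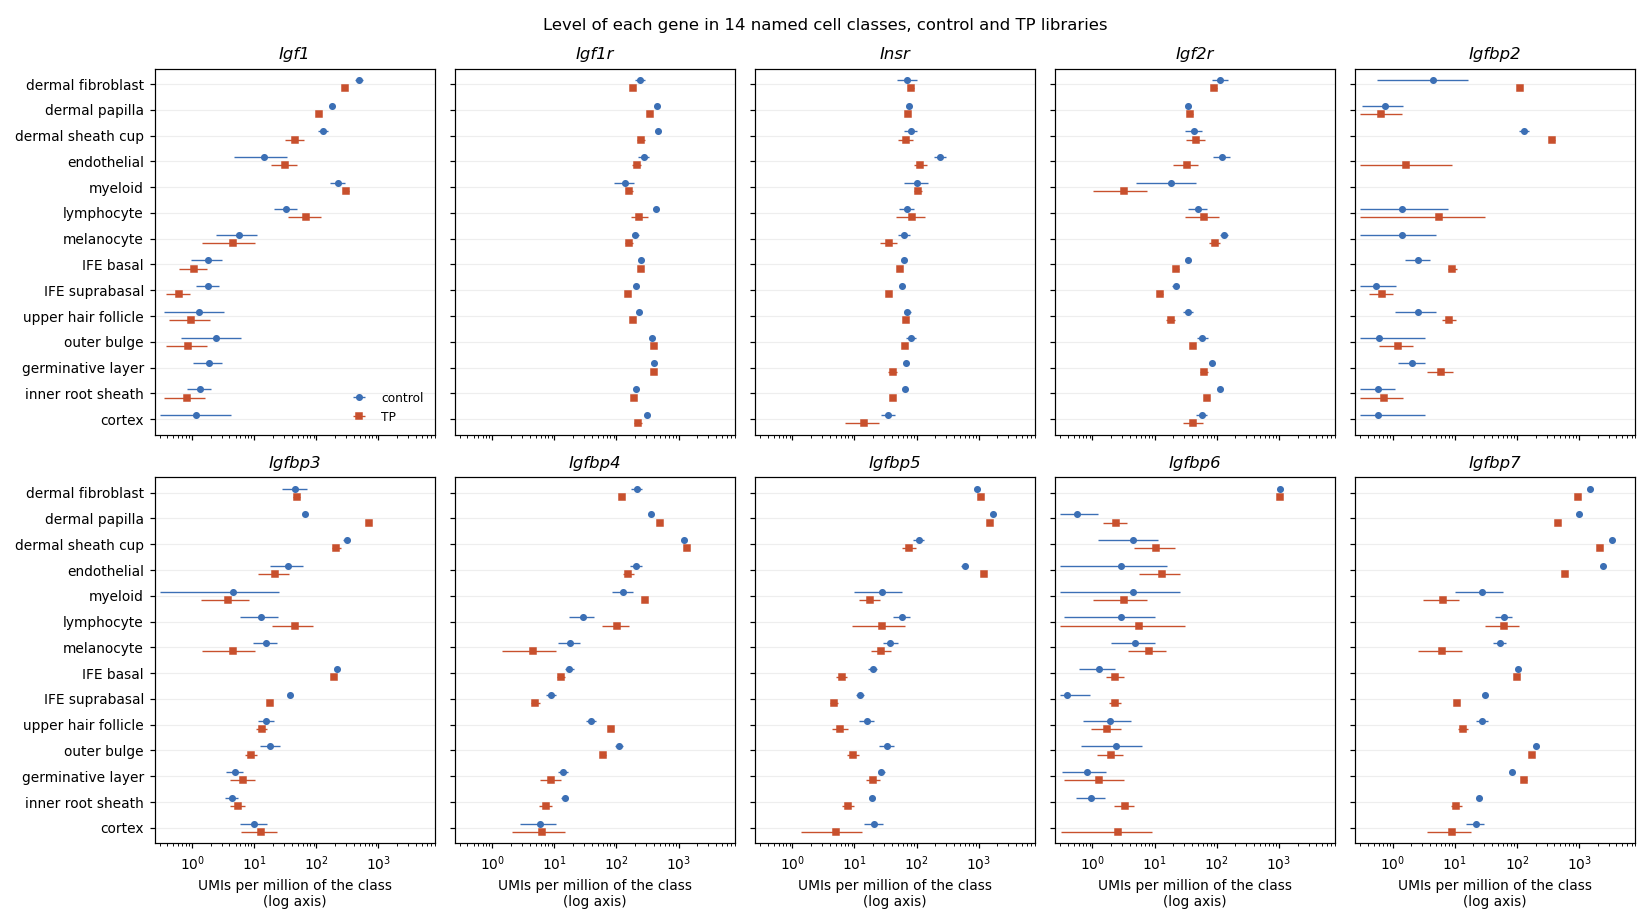
Level of each gene in UMIs per 1000000 UMIs of the class (x axis, log scale) in 14 named cell classes (y axis), control as circles and TP as squares, with exact 95% intervals for counting error drawn from 0.3 upward; levels of 0 are not drawn. Igf1 stands above 100 in mesenchymal and myeloid control cells and under 3 in keratinocytes, Igf1r is above 100 in every class, and Igfbp6 is near 1000 in dermal fibroblast-like cells of both libraries.

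Among DPC-like cells the Igf1 level varied between subclusters, named here by their leading genes. The Fgf10, Kcnip4 and Sostdc1 subcluster held 53.7% of the control library's Igf1 UMIs at 314 CPM (298 to 332), against 166 CPM (145 to 189) in TP. The ratio there was 0.528 (0.458 to 0.608). In the subcluster led by Ndnf, a papilla marker, Igf1 was at 87.9 and 118 CPM, a ratio of 1.35 (1.08 to 1.67). In the subcluster led by a (agouti) and Vip it was at 85.1 and 37.6 CPM, so the subclusters did not move in 1 direction. The Fgf10 subcluster made up 33.4% of control and 12.6% of TP DPC-like cells, and the Ndnf subcluster 43.2% and 10.2%. With control weights for the subclusters the class ratio was 0.697, beside 0.611 without.

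In dermal fibroblast-like cells Igf1 was highest in the subcluster led by Sfrp4, Ogn and Pi16, at 1065 CPM (846 to 1323) and 905 CPM (826 to 989). The collagen-rich subcluster led by Col1a1, Col1a2 and Sparc had 508 CPM (364 to 688) and 176.5 CPM (157 to 198), with 0.348 as the ratio. The control levels of these subclusters rest on 18 and 16 cells, and the intervals do not hold the spread between cells. The difference between the libraries in this class was therefore uneven. It rests on 122 control and 530 TP cells. When 15% of barcodes instead of 7.5% were removed as doublets, 1 control and 356 TP cells of the class were left, so every fibroblast-like ratio here rests on control cells that such a setting removes.

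In myeloid-like cells Igf1 belonged to the subclusters led by macrophage genes. The subcluster led by Ccl8 and the complement genes C1qa and C1qb held 15 control and 178 TP cells. Its levels were 610 CPM (408 to 876) and 429 CPM (389 to 471). That led by F13a1 and Mrc1, with 36 and 30 cells, was at 311 and 405 CPM. The subcluster led by the antigen presentation genes Cd74 and H2-Aa was at 14.6 CPM from 1 UMI and 10.3 CPM from 4 UMIs. The C1q subcluster made up 14.6% of control and 54.9% of TP myeloid-like cells, and with control weights the class ratio went from 1.36 to 0.935, and with TP weights to 0.732.

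The receptors were spread widely. Igf1r (chromosome 7, 67952257 to 68233668) had at least 136 CPM in each of the 14 classes of both libraries, and its highest level was 1.75 times the median class in control and 1.84 times in TP. For Igf1 the same quotient was 121 and 109. In control the highest classes were dermal sheath cup-like at 457 CPM, DPC-like at 445, lymphocyte-like at 434 and germinative layer-like, the matrix keratinocytes above the papilla, at 396, each overlapping the next. Among unnamed clusters, that led by Ntn1, Tmtc1 and Eda, the signal ectodysplasin, had 615 CPM (594 to 638) and 665 CPM (626 to 705).

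Igf1r was within 2-fold between the libraries in each of the 14 classes. The ratio was 0.78 (0.746 to 0.816) in DPC-like, 0.54 (0.451 to 0.644) in dermal sheath cup-like, 1.01 (0.942 to 1.07) in germinative layer-like and 1.06 (0.976 to 1.16) in outer bulge-like cells. Its interval lay under 1 in 9 classes and above 1 in 0. In 6 of these 9 the direction turned under at least 1 other setting, inner root sheath-like cells among them. In DPC-like, dermal sheath cup-like and cortex-like cells it did not. With subcluster weights, however, the DPC-like ratio was nearer 1, at 0.944 with those of control and 0.988 with those of TP. The thinned share of cells was 34.6% (33 to 36.3) and 25.9% (23.7 to 28.2) in DPC-like cells, beside 17.5% and 16.4% in inner root sheath-like cells, which also had Igf1r at 209 and 193 CPM. In lymphocyte-like cells, the other planned background class, it was 36.8% (31 to 42.9) and 20% (9.05 to 35.6). These overlapped the DPC-like shares in both libraries.

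Insr (chromosome 8, 3150922 to 3279649), the insulin receptor, which also forms hybrids with IGF1R, was highest among the named classes in endothelial-like cells, at 239 CPM (190 to 296) and 115 CPM (89.6 to 145). In both libraries the other 13 classes were between 14.01 and 105 CPM. The TP interval overlapped that of myeloid-like cells at 105 CPM (89.8 to 123) and that of the unnamed cluster led by Myh11, Tagln and Acta2 at 121 CPM (93.9 to 154). The endothelial-like cells were not the same mixture, however. The subcluster led by Cd36, Flt1 and Mecom, genes of blood vessels, made up 78.9% of control and 30% of TP endothelial-like cells, and those led by Ccl21a with Reln and Mmrn1 or Lrg1, genes of lymphatic vessels, made up the rest. Within the Cd36 and Flt1 subcluster Insr was at 303 CPM (240 to 377) and 301 CPM (221 to 400).

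Igf2r (chromosome 17, 12682406 to 12769706), the receptor that carries IGF2 and lysosomal enzymes inward, had its highest levels among the named classes in melanocyte-like cells, 129 CPM (111 to 149) and 92.4 CPM (75.5 to 112), overlapping the next class in both libraries. In TP the unnamed clusters led by Myh11, Tagln and Acta2, at 145 CPM (115 to 180.0), and by Gask1b, Fzd5 and Creb5, at 118 CPM (95.6 to 144), had higher values. Dermal fibroblast-like and inner root sheath-like cells followed within the next 3 places in both libraries, at 114 and 113 CPM in control and 91.4 and 70.3 CPM in TP. In myeloid-like cells, the lowest named class, it was at 18.1 and 3.19 CPM. In endothelial-like cells it was lower in TP by the 2-fold rule, with 121 CPM (87.2 to 163) and 32.9 CPM (20.1 to 50.7). With 1 per 10000 added instead of 10 CPM, this difference was within 2-fold. The Cd36 and Flt1 subcluster alone gave 134 CPM from 35 UMIs and 38.4 CPM from 6 UMIs, a ratio of 0.286 (0.0984 to 0.688). Cells of that subcluster had medians of 1921 and 829 UMIs, and the part of this depth in the result was not tested.

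Among the binding proteins, dermal sheath cup-like cells had the highest level of the named classes for Igfbp2, Igfbp4 and Igfbp7 in both libraries and for Igfbp3 in control, DPC-like cells for Igfbp5 and dermal fibroblast-like cells for Igfbp6. The sheath cup-like cells scored 2.52 for dermal sheath cup and 2.19 for dermal fibroblast, with 1 sheath cup marker, Col11a1, among their leading genes. The unnamed cluster led by Myh11, Tagln and Acta2, whose best class was smooth muscle and pericyte, scored 2.71 for dermal sheath cup. At resolution 0.5 no cluster took the sheath cup name. Among class values with at least 50 UMIs in each library, the ratio farthest from 1 was that of Igfbp3 in DPC-like cells. Igfbp3 (chromosome 11, 7206086 to 7215498) forms the main carrier of IGFs in blood. In control it was highest in dermal sheath cup-like cells at 308 CPM (272 to 346), then in basal cells of the interfollicular epidermis (IFE) at 213 CPM (203 to 223), then in DPC-like cells at 66.2 CPM (61.4 to 71.3). In TP, DPC-like cells were at 714 CPM (697 to 731), a ratio of 10.8 (9.98 to 11.7). The dermal sheath cup-like cells were at 211 CPM and the IFE basal-like cells at 189.8 CPM. DPC-like cells held 17.3% of Igfbp3 UMIs in control and 55.9% in TP.

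Nearly all of this difference lay in a single subcluster of DPC-like cells. It was led by Dkk2, a secreted modulator of Wnt signalling, and Gpc5, a glypican, with Igfbp3 as its next leading gene although Igfbp3 was not used for clustering. It held 28 control and 320 TP cells, 0.796% and 19.9% of DPC-like cells. Igfbp3 was at 1241 CPM (926 to 1627) in its control cells and 6292 CPM (6134 to 6452) in its TP cells, a ratio of 5.07 (3.86 to 6.8). Its TP cells held 51% of all Igfbp3 UMIs of the library. In the other subclusters Igfbp3 was between 21.5 and 128 CPM in control and 40.4 and 149 CPM in TP. With control weights for the subclusters the class ratio of 10.8 became 1.29, and with TP weights 3.35. Without the Dkk2 and Gpc5 subcluster no member was 2-fold higher in DPC-like cells, the log2 difference of Igfbp3 in that class was 0.14 instead of 3.25, and in whole libraries it was 0.17 instead of 1.03.

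That subcluster had the lowest papilla score of the DPC-like ones. Its marker score was 1.36, close to the minimum for a name, where the other DPC-like subclusters scored between 1.98 and 2.96, and its next class was dermal fibroblast. Before subclusters were made, the cluster led by Dkk2, Gpc5 and Adamts18 scored 1.97 for dermal sheath cup and 1.72 for dermal papilla. Like some other DPC-like subclusters, it had 8 of 9 papilla markers detected and 0 among its 10 leading genes. Its cells had medians of 1110.5 and 1880 UMIs. Igf1 in it was at 310 CPM (165 to 530) and 264 CPM (232 to 298), beside 314 and 166 CPM in the Fgf10 subcluster. Igf1r was at 334 and 614 CPM. Igfbp5, abundant in other papilla subclusters, was at 47.7 CPM from 2 UMIs in control and 13.5 CPM from 13 UMIs in TP.

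**Figure D3:**
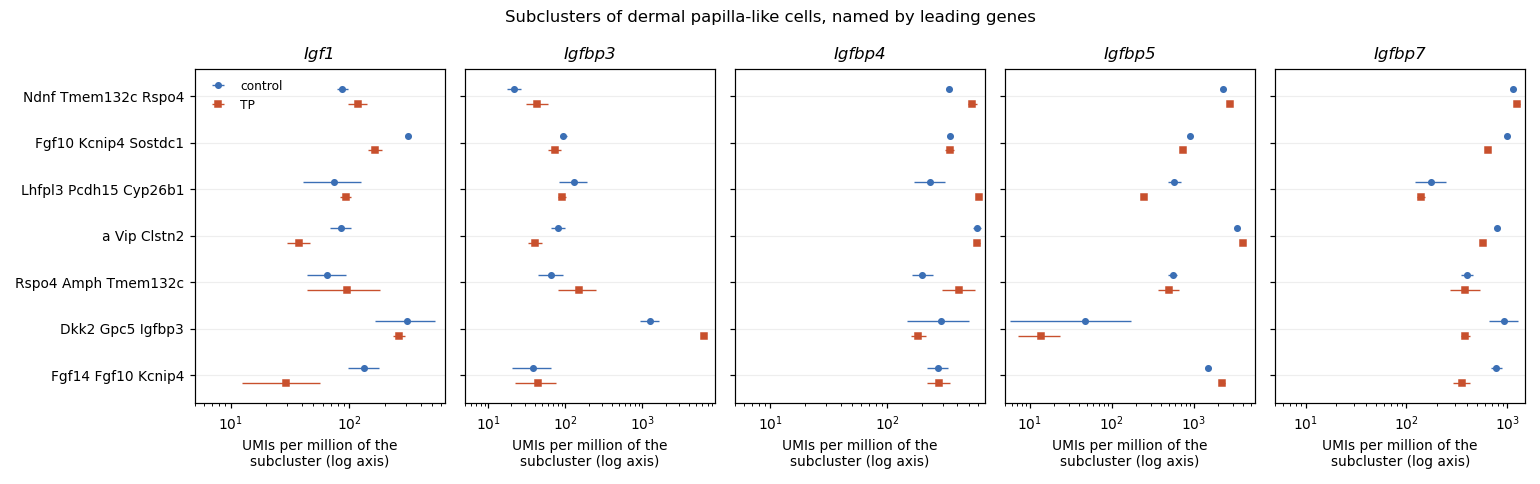
Levels of Igf1, Igfbp3, Igfbp4, Igfbp5 and Igfbp7 in UMIs per 1000000 UMIs of the subcluster (x axes, log scale) in 7 subclusters of DPC-like cells (y axis, leading genes), control as circles and TP as squares with exact 95% intervals. The Dkk2, Gpc5 and Igfbp3 subcluster stands apart for Igfbp3, at 1241 and 6292, and for Igfbp5, at 47.7 and 13.5.

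In epidermis Igfbp3 was highest in the basal cluster led by Krt14 and Krt15, at 255 CPM (240 to 271) and 269 CPM (258 to 280). It was lower in TP in the other basal clusters, with a ratio of 0.61 (0.532 to 0.698) in that led by Sox6 and Cdh13. In IFE suprabasal-like cells it was at 37.8 and 17.7 CPM. The thinned share of cells with Igfbp3 was 13.3% (12.1 to 14.6) and 10.9% (9.86 to 12) in IFE basal-like cells, beside 0.536% and 0.287% in inner root sheath-like cells. In DPC-like cells it was 4.87% (4.15 to 5.68) and 22.1% (20 to 24.2).

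Igfbp5 (chromosome 1, 72858065 to 72874865), a binding protein that also attaches to extracellular matrix, was highest in the papilla among the named classes. DPC-like cells held 84.4% of its UMIs in control and 63.1% in TP, at 1706 CPM (1681 to 1731) and 1490 CPM (1466 to 1516). The subcluster led by a and Vip was highest, at 3427 CPM (3319 to 3537) and 3982 CPM (3899 to 4067), followed by the Ndnf subcluster at 2268 and 2757 CPM. With control weights for the subclusters the class ratio of 0.874 became 1.12, so its direction depended on the mixture of subclusters. Dermal fibroblast-like cells had 943 and 1098 CPM. The unnamed cluster led by Myh11, Tagln and Acta2 was at 1248 and 1761 CPM, above DPC-like cells in TP, and that led by Peg3 and Chodl at 1383 and 1246 CPM.

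In endothelial-like cells Igfbp5 was higher in TP, with 593 CPM (515 to 680) and 1217 CPM (1131 to 1308). The Cd36 and Flt1 subcluster was at 640 and 506 CPM. The Ccl21a and Reln subcluster was at 133 CPM in control, from 2 UMIs, and 1365 CPM (1225 to 1517) in TP, and the Ccl21a and Lrg1 subcluster at 519 CPM (366 to 716) and 1585 CPM (1416 to 1770). The ratio of 2.05 became 1.29 when the subclusters were given control weights and 3.12 when they were given TP weights. The TP weights are largest for the Ccl21a and Reln subcluster, whose control level is those 2 UMIs from 9 cells. With 15% of barcodes removed as doublets, 78 control and 52 TP cells of the 128 and 200 were left and the log2 difference turned from 1.02 to -0.11. Keratinocyte levels were low, and they were lower in TP: IFE basal-like cells had 19.7 and 6.26 CPM and outer bulge-like cells 33.2 and 9.51 CPM, the latter past the 2-fold rule. The thinned share in outer bulge-like cells was 3.002% (1.73 to 4.83) and 1.20% (0.713 to 1.89), beside 2.01% and 1.05% in inner root sheath-like cells, so these shares overlapped the background class in both libraries. By CPM the outer bulge-like level was above that of inner root sheath-like cells in control, 19.5 CPM (17.4 to 21.8), and overlapped it in TP, 7.99 CPM (6.32 to 9.98).

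Igfbp2 (chromosome 1, 72824480 to 72852474) lies 5590 bases from Igfbp5. In control it was highest in dermal sheath cup-like cells, which held 48.1% of its 241 UMIs at 131 CPM (108 to 157). In TP these cells were at 366 CPM (324 to 412), higher by a ratio of 2.8 (2.24 to 3.51). Their thinned shares, 9.18% (6.14 to 13.1) and 13.5% (8.06 to 20.7), overlapped. DPC-like cells had 0.757 and 0.648 CPM. Igfbp2 was among the 10 leading genes of the sheath cup-like subcluster, although it was not used for clustering.

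Dermal fibroblast-like cells held nearly as large a share of the Igfbp2 UMIs of TP as all other cells, 44.8%, against 0.83% in control. They had 2 UMIs in control and 520 in TP, 4.55 CPM (0.55 to 16.4) and 111 CPM (102 to 121), with a ratio of 24.5 (6.74 to 203). With the subcluster weights of either library the ratio was smaller, 5.16 with those of control and 5.14 with those of TP. Nearly all Igfbp2 UMIs of the class lay in 1 subcluster, so either weighting returns about the ratio within that subcluster. The 2 values are therefore not separate results, and their control side is 2 UMIs in 3 cells. Of the 520 UMIs, 519 lay in the subcluster led by Col1a1, Igfbp2 and Lum, at 871 CPM (798 to 949). It held 62 TP cells and 3 control cells, and both control UMIs also lay in it. After thinning, 0 of 121 control and 11 of 529 TP fibroblast-like cells showed Igfbp2. The 95% interval of the first reaches 3.003% and that of the second runs from 1.04 to 3.69%, so a difference was not detectable at that depth. IFE basal-like cells had 2.55 and 9.1 CPM, a ratio of 3.58 (2.23 to 6.03) that the added 10 CPM kept within 2-fold.

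Igfbp6 (chromosome 15, 102144186 to 102149512), which prefers IGF2 over IGF1, was a transcript of dermal fibroblast-like cells. They held 80.3% of its UMIs in control and 93.4% in TP, and their level was 1057 CPM (963 to 1157) and 1028 CPM (999 to 1057). The ratio of 0.973 (0.884 to 1.07) stands beside the ratio of 7.06 in whole libraries. No other named class exceeded 4.91 CPM in control or 13.1 CPM in TP. Thinned cells with Igfbp6 were 43.8% (34.8 to 53.1) and 49.7% (45.4 to 54.1) of fibroblast-like cells, beside 0.0958% and 0.382% of inner root sheath-like cells. Of the fibroblast-like subclusters, that led by Pi16, Ebf2 and Gfpt2 was highest in control, at 3412 CPM from 60 UMIs. These came from 5 cells, so its place in control rests on those cells. In TP, with 55 cells, it was at 2069 CPM (1927 to 2218). That led by Sfrp4, Ogn and Pi16 was highest in TP, at 2262 CPM, and at 2182 CPM in control.

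**Figure D4:**
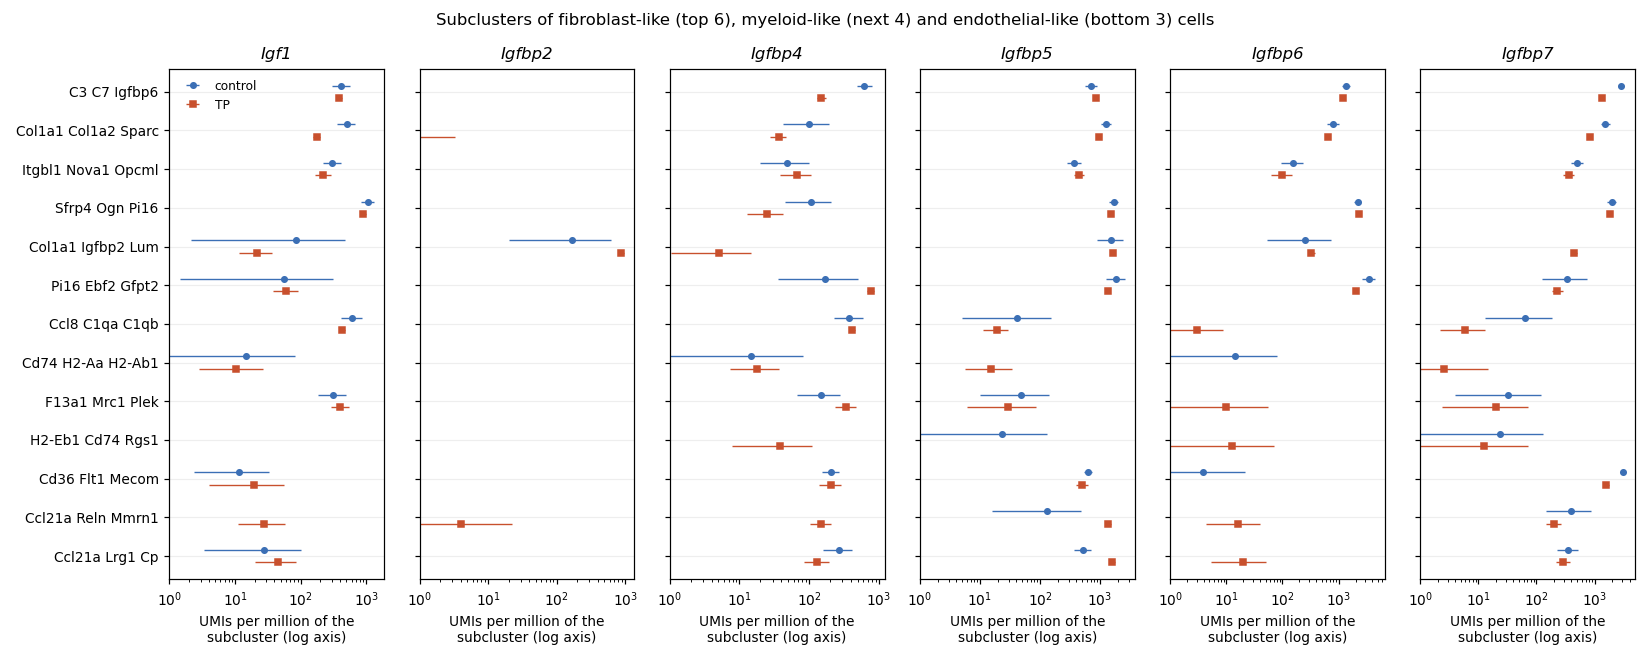
Levels of 6 of the genes in UMIs per 1000000 UMIs of the subcluster (x axes, log scale, starting at 1) in subclusters of dermal fibroblast-like (top 6), myeloid-like (next 4) and endothelial-like cells (bottom 3), named by leading genes on the y axis, control as circles and TP as squares with exact 95% intervals; levels of 0 are not drawn. Igfbp2 is seen in the Col1a1, Igfbp2 and Lum subcluster and Igfbp6 in fibroblast-like subclusters, and Igf1 in the myeloid-like subclusters led by C1q genes and F13a1 is between 311 and 610, with the Cd74 and H2-Aa subcluster at 14.6 and 10.3.

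Igfbp4 (chromosome 11, 99040005 to 99052655), which PAPP-A cuts, was highest in dermal sheath cup-like cells, at 1209 CPM (1138 to 1283) and 1348 CPM (1266 to 1434). DPC-like cells had 356 and 501 CPM, a ratio of 1.41 (1.35 to 1.47), and they held 55.7% and 49.6% of its UMIs. The subcluster led by Lhfpl3, Pcdh15 and Cyp26b1, 1.82% of control and 34.1% of TP DPC-like cells, was at 234 and 611 CPM. Dermal fibroblast-like cells went the other way, at 214 and 122 CPM, with a ratio of 0.573 (0.46 to 0.72). Their subcluster led by C3 and C7, with 28 control and 147 TP cells, had 620 CPM (481 to 786) and 149 CPM (128 to 172). The subcluster led by Pi16, Ebf2 and Gfpt2 went the opposite way, with 171 CPM from 3 UMIs in 5 control cells and 769 CPM (684 to 862) in TP. It held 51.2% of the Igfbp4 UMIs of the class in TP.

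In myeloid-like cells Igfbp4 was higher in TP, at 127 CPM (84.4 to 184) from 28 UMIs and 287 CPM (261 to 315) from 450 UMIs. The C1q subcluster was at 379 and 406 CPM. With control weights the ratio of 2.26 became 1.52 and with TP weights 1.13, so the proportion of C1q cells moved with the difference. Upper hair follicle-like cells had 39.3 and 82.8 CPM, a ratio of 2.11 (1.74 to 2.58) that the added 10 CPM kept within 2-fold.

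Igfbp7 (chromosome 5, 77349240 to 77408045), a secreted protein of vessel walls that binds IGFs weakly, was at 3408 CPM (3287 to 3531) and 2164 CPM (2060 to 2272) in dermal sheath cup-like cells. The unnamed cluster led by the smooth muscle genes Myh11, Tagln and Acta2 was at 3419 and 3802 CPM. In DPC-like cells it was lower in TP by the 2-fold rule, with 982 CPM (963 to 1001) and 463 CPM (449 to 477). The Ndnf subcluster, at 1150 and 1256 CPM, had a ratio of 1.09 (1.02 to 1.17), while the Fgf10 subcluster was at 982 and 637 CPM. With control weights the class ratio of 0.472 became 0.86, and TMM scaling also took it inside 2-fold.

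In endothelial-like cells Igfbp7 was lower in TP as well, with 2416 CPM (2255 to 2585) and 585 CPM (526 to 649). Unlike Insr, it was also lower within the Cd36 and Flt1 subcluster, at 3096 CPM (2886 to 3317) and 1587 CPM (1396 to 1798). With control weights the ratio of 0.242 became 0.522. Melanocyte-like cells had 52.6 CPM from 75 UMIs and 6.28 CPM from 7 UMIs. Their thinned shares, 3.76% (2.16 to 6.03) and 1.35% (0.164 to 4.8), overlapped those of inner root sheath-like cells, 2.8% and 1.24%, although by CPM the control level was above the 24.9 CPM (22.5 to 27.5) of the latter. With 15% of barcodes removed as doublets, 309 of 488 control and 18 of 164 TP melanocyte-like cells were left. Of endothelial-like cells, 78 of 128 and 52 of 200 were left. Germinative layer-like cells were higher in TP, at 83.9 and 131 CPM, a ratio of 1.56 (1.38 to 1.76).

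Counted over the genes, calls within classes were few. In DPC-like cells 8 of the 10 genes reached 50 UMIs, with 1 higher (all genes 1.66%) and 1 lower (1.84%). In dermal sheath cup-like cells 9 did, with 1 higher (3.24%) and 1 lower (4.34%), and in dermal fibroblast-like cells all 10 did, with 1 higher (1.85%) and 0 lower (2.88%). In endothelial-like cells 6 did, with 1 higher (4.89%) and 2 lower (4.62%), and in myeloid-like cells 4 did, with 1 higher (5.03%) and 0 lower (3.79%). Melanocyte-like cells had 0 of 5 higher (3.06%) and 1 lower (7.27%), and outer bulge-like cells 0 of 7 higher (0.763%) and 1 lower (1.29%). The other 7 named classes had 0 in both directions. Their shares of all genes, higher and then lower, were 0.396% and 0.629% in IFE basal-like, 0.727% and 1.14% in IFE suprabasal-like, and 0.382% and 0.954% in upper hair follicle-like cells. They were 0.525% and 0.212% in germinative layer-like, 1.98% and 0.369% in inner root sheath-like, 2.04% and 1.64% in cortex-like, and 4.64% and 8.51% in lymphocyte-like cells. With 10 genes or fewer in a class, 1 call is 10% or more of them, so these counts are not read as an excess.

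**Figure D5:**
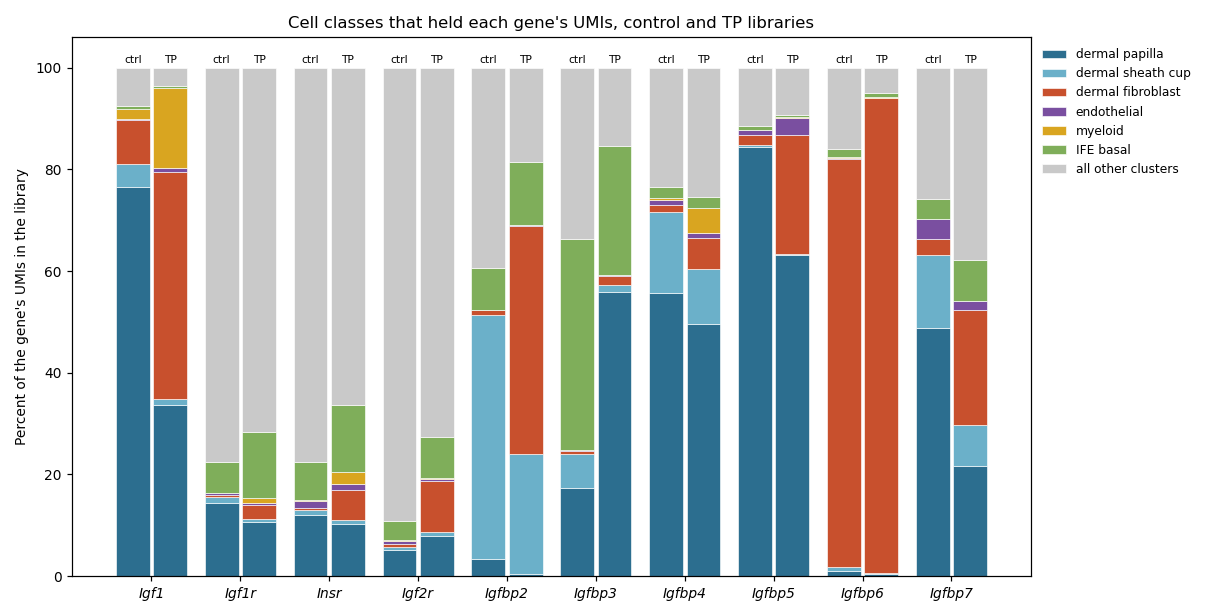
Percent of each gene's UMIs (y axis, from 0) that lay in 6 cell classes and in all other clusters, for the control (ctrl) and TP libraries side by side. Igf1 goes from 76.5% in DPC-like cells in control to 33.7% in TP with 44.8% in dermal fibroblast-like cells, Igfbp6 is fibroblast-like in both, and the receptors lie mostly in other clusters.

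Across the 14 classes of both libraries, levels on the log2(CPM + 1) scale were also compared between genes, as a description over 28 points that share 2 libraries. Igf1 was most like Igfbp4 (r = 0.77) and Igfbp5 (r = 0.72), and had r = -0.02 with its receptor Igf1r. The most alike pair apart from Igf1 was Igfbp5 and Igfbp7 (r = 0.77). Among all genes with at least 1000 UMIs, those most like Igf1 were Il16, Cd302 and Dnm1 (r from 0.94 to 0.95), those most like Igfbp5 were Ebf1, Ldb2 and Thsd7a (0.91 to 0.92), and those most like Igfbp6 were C7, Lum and Adgrd1 (0.91 to 0.94). Igfbp7 was most like Col4a1, Lamb1 and Col4a2, genes of the basement membrane (0.92 to 0.93), Igfbp3 like Bmp3, Antxr1 and Col23a1 (0.86 to 0.89), and Igfbp4 like Adam22, Nhsl2 and Cped1 (0.89 to 0.90). For Igf1r, Insr, Igf2r and Igfbp2 the highest r was between 0.78 and 0.87, with Ptpdc1, Trim56, Rab23 and Mfap5.

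The pathway around these genes was covered by a list of 41 others. In whole libraries 34 reached 50 UMIs, with 0 higher (all genes 1.71%) and 1 lower (0.79%). In DPC-like cells 33 did, with 3 higher (1.66%) and 1 lower (1.84%). The gene lower in both was Pappa, the protease that frees IGFs from Igfbp4, at 953 and 422 CPM in DPC-like cells with a ratio of 0.443 (0.427 to 0.46). It was also lower in dermal sheath cup-like cells, at 265 and 44.0 CPM. Its relative Pappa2 stood at 1117 CPM in DPC-like cells of both libraries, but at 178 and 52.1 CPM in dermal sheath cup-like cells. Pathway genes were counted by class only. The part of the changed mixture of DPC-like subclusters in their values was therefore not tested.

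The 3 genes higher in DPC-like cells were Igf2, the other IGF ligand, at 12.1 and 36.7 CPM, Stc2, an inhibitor of PAPP-A, at 6.34 and 31.1 CPM, and Socs2, which restrains growth hormone signalling, at 3.79 and 21.5 CPM. Stc2 was also among the leading genes of the Dkk2 and Gpc5 subcluster. None of the 7 adaptors at the receptor and none of the 12 genes of the PI3K to FoxO route that were tested in DPC-like cells differed by 2-fold. The median log2 difference was -0.13 for the adaptors and -0.03 for the PI3K to FoxO route, beside -0.06 for all genes of the class. In other classes Adam12 was higher in dermal sheath cup-like cells (46.2 and 271 CPM) and Pik3r1 lower (802 and 380 CPM). Ghr was higher in inner root sheath-like cells (23.2 and 99.5 CPM), Htra1 lower in IFE suprabasal-like cells (43.3 and 15.1 CPM), Pappa lower in upper hair follicle-like cells (64.4 and 26.2 CPM) and Foxo3 lower in melanocyte-like cells (135 and 61.9 CPM).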

How the data were processed

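The authors deposited raw UMI counts for every gene in every barcode, made with Cell Ranger 8.0.1 on mm10 according to the submitters' processing notes, with 1 library per group. The authors' limits come after these files and were applied here: 200 to 8000 genes and at most 10% mitochondrial UMIs. The authors also removed doublets by DoubletFinder at its default parameters, and their text gives no share removed. Here the 7.5% of barcodes most like artificial doublets were removed by a rewritten DoubletFinder procedure (25% artificial cells, 30 components, nearest 1%). That share was chosen for this report. The control cells kept held 108722105 UMIs and the TP cells 136864662. Seurat 5.3.0 in R 4.3.3 integrated the libraries by reciprocal PCA on 2000 variable genes and clustered at resolution 1 with 30 components. Papilla and fibroblast subclusters used resolution 0.3 and immune ones 0.6, with 20 components. Clusters took the class whose markers scored highest, at 1.25 or more with at least 3 markers detected, unless another class had more markers among the 10 leading genes or cells were shallow with no own marker there. Fibroblast-like and endothelial-like clusters were named before splitting, and the fibroblast subcluster led by C3 and C7 stayed unnamed on its own. The score, the pools for subclusters, the split of endothelial-like cells and 3 clusters left unnamed for their hemoglobin or muscle genes were set after clusters were seen.

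The members, the lists and the markers were chosen with earlier results of these data known. Intervals at 95% are exact: Poisson for levels, conditional binomial for ratios, and Clopper-Pearson for shares of cells. Sums ran in Python 3.11.15 with numpy 2.4.6 and scipy 1.17.1, and edgeR 4.0.16 gave TMM factors only. Thinning to 1000 UMIs left out 5340 control and 837 TP cells. Gene positions are RefSeq's for GRCm38.p6, matched by symbol for 10 of 10. All 10 genes are named. Of the pathway list, those named differ by 2-fold in a class with at least 200 UMIs, and others are given for context after their values were seen. For likeness, the 3 genes of highest r were taken per member.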

Additional observations from a re-analysis of the deposited data

Results flagged for a closer look

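Igfbp5 differed between the libraries in opposite directions in a pair of classes: its log2 difference was 1.02 in endothelial-like and -1.15 in outer bulge-like cells, on the log2(CPM + 10) scale. The difference between the classes was not tested, since each group has 1 library. In endothelial-like cells the subclusters led by Ccl21a, where Igfbp5 was at 1365 and 1585 CPM in TP, made up 52.5% and 17.5% of TP cells but 7.03% and 14.1% of control cells. The outer bulge level rests on 55 control and 87 TP UMIs. Its thinned shares overlapped those of inner root sheath-like cells, the background class, whose own Igfbp5 level was 19.5 and 7.99 CPM, so the difference is not shown to belong to outer bulge-like cells.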

How the results depend on the processing

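No paired analysis was possible because each group is 1 library and the labels give no replicate numbers that pair samples. For the same reason no library could be left out. Of the 609 recomputed log2 ratios of 77 gene and class values, 322 stayed inside the counting interval, 286 moved outside it, and of the values past 2-fold 1 reversed: Igfbp5 in endothelial-like cells was -0.11 with 15% of barcodes removed as doublets, when 52 of 200 TP cells were left. The cause was not tested. Values within 2-fold also changed sign under some settings and were not counted as reversed. In whole libraries these included Igf1r, Insr and Igfbp7 with mean ln values, Igfbp4 at a mitochondrial limit of 5%, and Igfbp5 with control cluster weights. Within classes they included Igfbp5 in DPC-like and Igf1 in myeloid-like cells with subcluster weights, and Igf1r in several classes.

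The 2 members higher in whole libraries became 1 at a mitochondrial limit of 5%, 0 with a pseudocount of 1 per 10000, 0 with control cluster weights, 0 with TP cluster weights and 1 without the Dkk2 and Gpc5 subcluster. In dermal fibroblast-like cells the 1 higher became 0 after thinning and 7 with 15% doublets, and the 0 lower became 2 with 15% doublets, where 1 control cell was left, and 1 with control subcluster weights. In DPC-like cells the 1 higher became 0 with control subcluster weights and 0 without the Dkk2 and Gpc5 subcluster but was 1 with TP subcluster weights, and the 1 lower became 0 with TMM factors, mean ln values, a pseudocount of 1 per 10000, resolution 0.5, control subcluster weights and TP subcluster weights. Over all genes of whole libraries the 300 higher became 452 with TMM factors, 48 with the larger pseudocount and 63 with control and 63 with TP cluster weights, and the 139 lower became 59, 14, 10 and 8. The subcluster weights, the TP cluster weights and the run without the Dkk2 and Gpc5 subcluster were chosen after seeing the data.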
